A study of Mus musculus with 6 samples.

Results

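Glucose uptake, glycolysis and the response to low oxygen were described through 10 genes chosen by name from the 23284 gene symbols measured in each library, and all 10 were found. They are the glucose transporters Slc2a1 and Slc2a3, the glycolytic enzymes Hk2, Pfkl, Aldoa, Gapdh and Pgk1, the enzymes Ldha and Pdk1 that act on pyruvate and its entry into mitochondria, and the oxygen-regulated transcription factor subunit Hif1a. RNA was measured in C1498 cells, a mouse acute myeloid leukemia (AML) line, that had grown in mice and was sorted from their marrow 21 days after transfer. The 6 libraries, 1 per mouse, are cytarabine 1 to 3 from treated mice and control 1 to 3. Cytarabine is a nucleoside analog that stops DNA synthesis.

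In both groups the cells were C1498-EGFP, a single clone that carries GFP from a retroviral vector, injected into a vein of C57BL/6J mice that were female and 8 to 10 weeks old unless stated otherwise. The methods name a medium without glucose or sodium pyruvate for the transduced cells before the clone was selected. For the clone itself they name DMEM with serum and antibiotics and do not state its glucose. Neither medium gives the condition in the mice. The methods give cytarabine injections into the abdomen on days 19 and 20 for imaging and do not give the days for the RNA mice separately. The sample records call the controls both PBS-treated and untreated. The host kept its own marrow cells, so the sort on GFP and CD49b decided which cells entered a library.

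Glucose enters a cell through transporters of the Slc2a family and is trapped by hexokinase as glucose 6-phosphate. Phosphofructokinase commits it to glycolysis, and the lower enzymes turn the split sugar into pyruvate while making ATP. Lactate dehydrogenase A reduces pyruvate to lactate, whereas pyruvate dehydrogenase kinase 1 shuts the mitochondrial enzyme that would oxidize it. In low oxygen the protein of Hif1a escapes degradation and binds DNA with its partner Arnt, and genes of every step above are among its known targets. Proliferating leukemia cells are known for a high rate of glycolysis, and bone marrow is a tissue with low oxygen. Hif1a is regulated mostly at the protein level, which RNA does not measure.

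Because these genes are known together as targets of hypoxia-inducible factor (HIF), the DNA letters of its binding core were looked for in their promoters. RefSeq windows of GRCm38.p6, from 250 bases before to 50 bases after each transcript start, were matched by symbol for 9 of the 10 genes, in 13 windows. Slc2a3 had no window. The core form ACGTG was searched on both strands, where it reads CACGT on the gene's opposite strand. The other core form, GCGTG, was not searched. The core stood in a window of 7 of the 9 genes, whereas 29.5% of 8362 tested genes and 21.8% of 27025 genes with a window held it. Windows of Pfkl and Pdk1 did not hold these letters. These RefSeq starts can differ from the ends of the GENCODE gene spans given further below. The cores shown for Aldoa, Ldha and Hif1a lie inside those spans, and that of Slc2a1 crosses the edge of its span. The sequences below are those cores that lie before the RefSeq start, with 12 bases on each side in the gene's direction and the core in capitals.
Slc2a1, chr4:119108697-119108725, + strand, 36 bases before the start: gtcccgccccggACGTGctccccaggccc
Hk2, chr6:82774664-82774692, - strand, 226 bases before: agccacggaacaCACGTcccaactctggc
Hk2, chr6:82774490-82774518, - strand, 52 bases before: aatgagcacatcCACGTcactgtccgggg
Aldoa, chr7:126799364-126799392, - strand, 126 bases before the second of its 3 starts: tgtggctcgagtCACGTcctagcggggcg
Pgk1, chrX:106186938-106186966, + strand, 150 bases before: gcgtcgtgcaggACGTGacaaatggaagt
Pgk1, chrX:106186957-106186985, + strand, 131 bases before: aaatggaagtagCACGTctcactagtctc
Ldha, chr7:46845647-46845675, + strand, 145 bases before the first of its 2 starts: ggtgtcgcagcaCACGTggagccactctt
Ldha, chr7:46845744-46845772, + strand, 48 bases before: cggcccagcctaCACGTgggttcccgcac
Ldha, chr7:46845758-46845786, + strand, 34 bases before: cgtgggttcccgCACGTccgctgggctcc
Hif1a, chr12:73907720-73907748, + strand, 135 bases before: cacacagacaagCACGTgagcggggcagc
Hif1a, chr12:73907785-73907813, + strand, 70 bases before: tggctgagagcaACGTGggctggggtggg
In Gapdh the core lay 42 bases after the start and is not shown. Windows of Hk2, Pgk1 and Hif1a carried more than a single core, and the first window of Ldha carried the most. The first and second cores of Ldha and the first of Hif1a belong to CACGTG, the E-box letters also read by Myc and Max, which count as a core on both strands. CACGTG stood in windows of 11.99% of the tested genes and 8.09% of all genes with one. A match describes the sequence and is not evidence of binding in these cells.

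The authors deposited FPKM per gene, which divides reads by transcript length and library size. From the steps between low FPKM values, the libraries were estimated to hold between 11470000 and 18810000 reads. By that estimate, 20 FPKM on a transcript of 2000 bases rested on 413 to 678 reads. Other totals scored nearly as well on the regularity of the steps, at 0.641 beside 0.697 for the best in control 3. Control 1, cytarabine 2 and cytarabine 3 held much RNA of colon epithelium, and the other 3 libraries held less. The summed FPKM of 11 colon markers ranged from 279 to 4048 with cytarabine and from 22.0 to 1848 in controls. Cytarabine 1, at 279 FPKM, still held more than control 2 and 3, at 23.2 and 22.0 FPKM, so differences given below as within little colon RNA are not matched on it. In the same order of groups, that of 10 heart muscle markers ranged from 8.32 to 710 and from 55.3 to 2615, and that of 8 smooth muscle markers from 123 to 1184 and from 24.9 to 964. That of 9 erythroid markers ranged from 16.7 to 151 and from 24.1 to 39.9, and that of 8 macrophage markers from 17.2 to 64.5 and from 14.9 to 161. The 10 neutrophil markers summed to 248 to 1482 FPKM with cytarabine and 1487 to 2097 FPKM in controls. The sums did not overlap, but cytarabine 1 at 1482 FPKM was close to control 1 at 1487 FPKM. At an unadjusted p under 0.05, 7 of the markers were lower. Of 7 T cell markers, 5 were under 1 FPKM in every library, and their sum, nearly all from Cd28, was 33.5 to 39.5 FPKM with cytarabine and 13.9 to 17.0 FPKM in controls. Of the sort and lineage genes, Ptprc (CD45) was at 284 to 386 FPKM and Itga2 (CD49b) at 7.79 to 13.3 FPKM. Kit, a receptor of early myeloid cells, was at most at 1.59 FPKM. Mpo, a myeloid granule gene, was at 71.1 FPKM in cytarabine 1 and at 2.33 to 12.3 FPKM in the other libraries. Cd3e, a T cell receptor chain, was at 130 to 199 FPKM, so a T cell gene was high in cells labelled as myeloid leukemia. In such bulk samples, fewer cells of a type and less RNA per cell cannot be told apart.

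All 10 genes were expressed in all 6 libraries and fell into clear tiers. FPKM allow levels of different genes to be compared because they are per transcript length. Gapdh had the highest mean at 1130 FPKM over the 6 libraries, with values from 1052 to 1258. Ldha followed at 636 FPKM, from 603 to 678, and was below Gapdh in each library. Aldoa at 455 FPKM and Pgk1 at 416 FPKM came next, and their ranges overlapped. A wide gap separated these 4 genes from the other 6, since Slc2a3 had a mean of 47.5 FPKM and no value above 53.0. Below it stood Slc2a1 at 42.6, Pfkl at 33.0, Hif1a at 25.1, Hk2 at 25.0 and Pdk1 at 24.7 FPKM. From Slc2a3 down, each gene's range over the libraries overlapped that of the next, although Slc2a1 was above Pfkl in 6 of 6 libraries, and Slc2a3 above Slc2a1 and Pfkl above Hif1a in 5 of 6. Among these 10 genes, enzymes of the lower pathway and Ldha were thus the abundant transcripts, and the transporters, Hk2, Pfkl, Pdk1 and Hif1a were the scarcer ones. Outside the 10, the upper-pathway enzymes Gpi1 and Pfkp averaged 181 and 109 FPKM, so the tiers do not describe whole steps.

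Near-identical copies make some of these levels uncertain. Of all 75-base stretches of Gapdh transcripts, 55.5% also occur in transcripts of 121 other genes, 115 of them pseudogenes, and for Pgk1 67.5% occur in 4 pseudogenes. Cufflinks could have divided such reads, so the levels of Gapdh and Pgk1 are uncertain by an unknown amount. For Hif1a and Ldha the share was 4.88% and 3.11%, and it was under 1% for the other 6 genes.

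**Figure D1:**
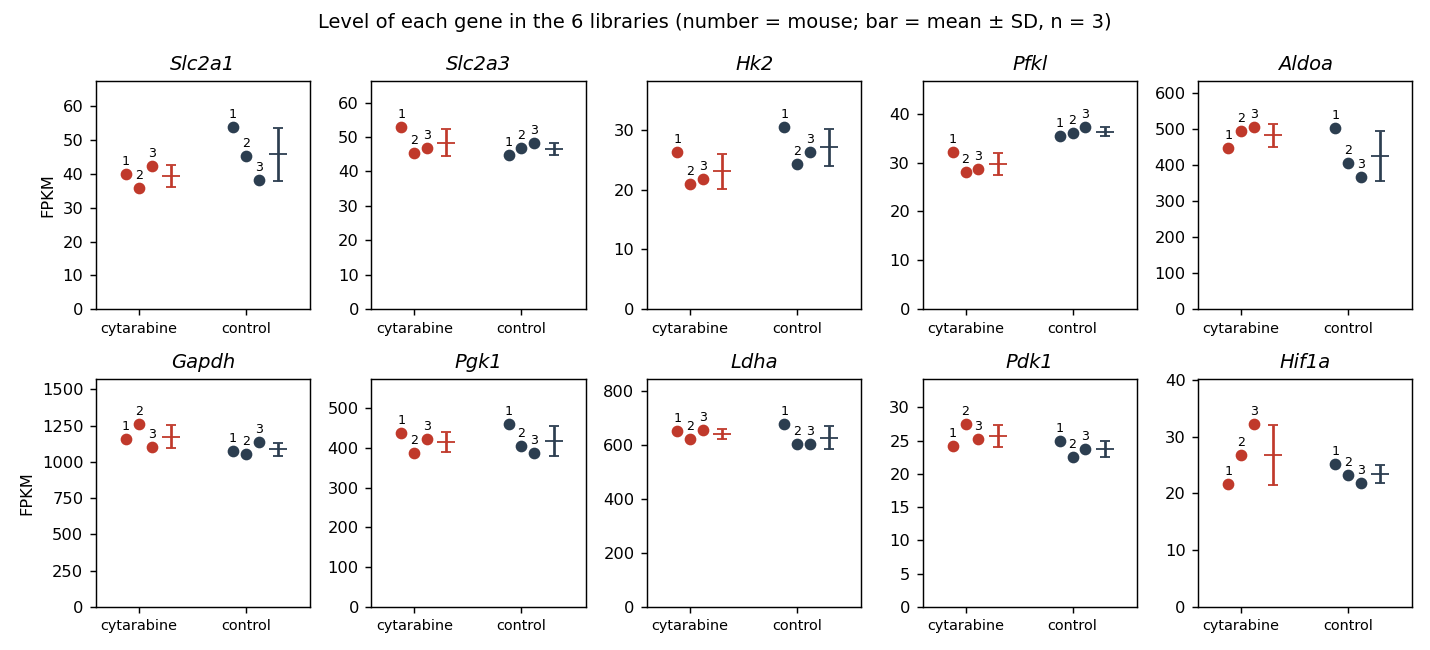
FPKM of each of the 10 genes in the 6 libraries, with an axis from 0 in each panel. Points are single mice with their number, and bars give the mean ± SD of 3 mice. Only in the Pfkl panel do the cytarabine points (28.0 to 32.2) all lie below the control points (35.5 to 37.3).

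The comparison of cytarabine with control asks which RNAs differed in the leukemia cells that remained after chemotherapy. For these 10 genes the answer was small differences, mostly within the spread between mice. With limma on log2(FPKM + 1), 0 of the 10 had a Benjamini-Hochberg adjusted p under 0.05, as was the case for 0% of the 11703 genes tested, where 2038 had an unadjusted p under 0.05. At that unadjusted level, 0 of the 10 were higher and 1 was lower, beside 7.60% of all tested genes higher and 9.81% lower, so neither count stood out from the background. The groups did not overlap for 1 of the 10, beside 23.8% of all tested genes. The median log2 fold change was 0.04 for the 10 genes and -0.0015 for all tested genes, with 6 positive and 4 negative values.

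The precision was enough to bound the differences. The 95% intervals of the 10 log2 fold changes together spanned -0.54 to 0.54. The SD of log2(FPKM + 1) over all 6 libraries ran from 0.069 to 0.209, and its median of 0.136 stood beside 0.149 for the 4687 tested genes that averaged 20 FPKM or more. In 5 of the 10 genes the SD was below that median. Summed, the 10 genes made up 0.448%, 0.457% and 0.463% of all FPKM in the cytarabine libraries and 0.451%, 0.419% and 0.411% in the controls, and the groups overlapped.

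**Figure D2:**
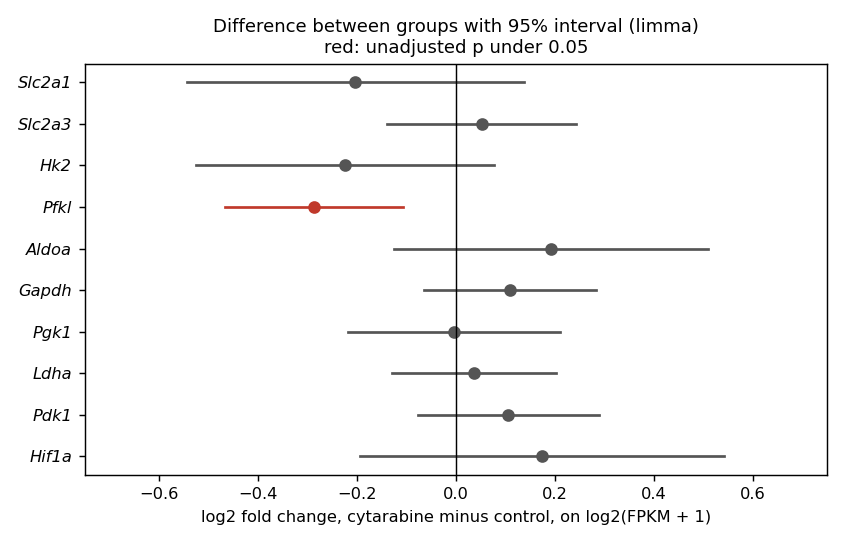
Log2 fold change of each gene, cytarabine minus control, on log2(FPKM + 1), with its 95% interval from limma over 3 against 3 mice. The interval of Pfkl, from -0.47 to -0.11, is the only one that does not reach 0.

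Pfkl encodes the liver-type subunit of phosphofructokinase, the enzyme of the committed step, and lies on chromosome 10 from 77986947 to 78010083 on the minus strand of GRCm38. In the order of mouse number, its level was 32.2, 28.0 and 28.7 FPKM with cytarabine and 35.5, 36.1 and 37.3 FPKM in controls, and the same order is kept for every gene that follows. Every cytarabine library was below every control. The log2 fold change was -0.29 (standard error 0.07, unadjusted p = 0.00819, adjusted p = 0.178 from limma), which did not pass the adjusted threshold. Within the 3 libraries with little colon RNA (cytarabine 1 against control 2 and 3) the difference was -0.18, and within those with much (cytarabine 2 and 3 against control 1) it was -0.31, each resting on a single library on one side. Cytarabine 1, the cytarabine library with the highest Pfkl, also had the most neutrophil marker RNA of its group, at 1482 FPKM in sum against 261 and 248 FPKM, and the part of neutrophil RNA in the difference was not tested. Leaving out cytarabine 1 gave -0.35 (adjusted p = 0.0540 from limma), and colon and heart scores as covariates gave -0.20 (adjusted p = 0.999 from limma).

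Among the transporters, Slc2a1 (GLUT1), on chromosome 4 from 119108711 to 119137983, was at 39.9, 35.9 and 42.2 FPKM with cytarabine and 54.0, 45.3 and 38.2 FPKM in controls. Control 1 was the highest and control 3 lay inside the cytarabine range. Its log2 fold change was -0.20 (standard error 0.14, 95% interval -0.54 to 0.14, adjusted p = 0.436 from limma). The difference was -0.06 with little colon RNA and -0.46 with much. Leaving out 1 library moved it from -0.080 (without control 1) to -0.32 (without control 3, unadjusted p = 0.0431, adjusted p = 0.488 from limma). Slc2a3 (GLUT3), a transporter of high affinity found in neurons and blood cells, lies on chromosome 6 from 122727809 to 122801640. It was at 53.0, 45.3 and 46.8 FPKM with cytarabine and 44.8, 46.7 and 48.2 FPKM in controls, and the groups overlapped. The log2 fold change was 0.05 (standard error 0.08, 95% interval -0.14 to 0.24, adjusted p = 0.715 from limma). Slc2a1 made up 43.0%, 44.2% and 47.4% of the summed FPKM of the pair with cytarabine and 54.6%, 49.2% and 44.2% in controls, a difference of -4.49 percentage points (exact permutation test, two-sided, p = 0.3). It was -1.84 points without control 1 and -7.07 points without control 3.

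Hk2, the hexokinase induced by insulin and hypoxia, lies on chromosome 6 from 82725025 to 82774454, and both of its promoter cores are shown above. It was at 26.3, 21.0 and 21.8 FPKM with cytarabine and 30.5, 24.4 and 26.3 FPKM in controls. Cytarabine 1 overlapped the controls and the other 2 cytarabine libraries lay below them. The log2 fold change was -0.22 (standard error 0.12, 95% interval -0.53 to 0.08, adjusted p = 0.371 from limma). It was 0.055 with little colon RNA and -0.50 with much. Without control 1 it was -0.14, and without cytarabine 1 it was -0.32 (unadjusted p = 0.0338, adjusted p = 0.118 from limma).

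Hexokinases catalyse the same step, so the share of Hk2 in the summed FPKM of Hk1, Hk2 and Hk3 was also compared. It was 45.8%, 42.4% and 40.3% with cytarabine and 51.8%, 47.8% and 50.01% in controls. The groups did not overlap, and the difference was -7.04 percentage points with p = 0.1 in the exact permutation test, the smallest p that 3 mice against 3 allow (0.42 after Benjamini-Hochberg adjustment over 7 such shares). Hk1, the hexokinase of most tissues, was at 27.6, 28.1 and 31.7 FPKM with cytarabine and 26.7, 24.5 and 24.0 FPKM in controls, with a log2 fold change of 0.21 (unadjusted p = 0.0439, adjusted p = 0.277 from limma). Hk3, a hexokinase of neutrophils and other myeloid cells, was at 3.61, 0.41 and 0.53 FPKM with cytarabine and 1.69, 2.17 and 2.26 FPKM in controls. With Hk3 left out, a choice made after seeing the data, the share of Hk2 differed by -7.73 points (exact permutation p = 0.1). The difference of the share was -3.09 points with little colon RNA and -10.5 points with much.

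**Figure D3:**
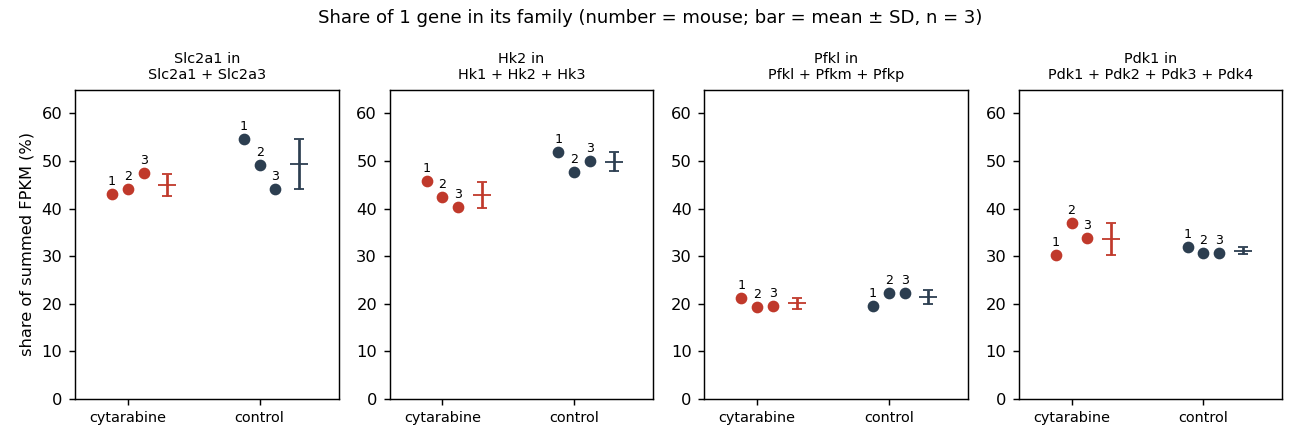
Share of Slc2a1, Hk2, Pfkl and Pdk1 in the summed FPKM of their families, in percent, with points for single mice and bars for the mean ± SD of 3 mice. The groups separate only for Hk2, with 40.3% to 45.8% with cytarabine and 47.8% to 51.8% in controls.

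Pfkl made up 21.3%, 19.3% and 19.6% of phosphofructokinase FPKM with cytarabine and 19.6%, 22.3% and 22.3% in controls (exact permutation p = 0.2). Most of the rest was Pfkp, the platelet-type subunit, at 104, 102 and 101 FPKM with cytarabine and 125, 108 and 115 FPKM in controls. Pfkp thus stood on the same side as Pfkl, with a log2 fold change of -0.18 (unadjusted p = 0.0408, adjusted p = 0.270 from limma). Pfkm, the muscle-type subunit, was at 14.4 to 17.1 FPKM and 15.0 to 20.3 FPKM, and the groups overlapped.

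In lower glycolysis, Aldoa, the aldolase of muscle and of most proliferating cells, lies on chromosome 7 from 126795234 to 126800751. It was at 447, 495 and 508 FPKM with cytarabine and 504, 408 and 367 FPKM in controls. Control 1 lay among the cytarabine values and the other 2 controls below them. Its difference on the log2 scale was 0.19 (standard error 0.13, 95% interval -0.12 to 0.51, adjusted p = 0.430 from limma), the most positive of the 10. It was 0.21 with little colon RNA and -0.0079 with much. Without control 3 it was 0.090, and without control 1 it was 0.32 (unadjusted p = 0.0178, adjusted p = 0.248 from limma).

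Gapdh, on chromosome 6 from 125161715 to 125166467, was at 1158, 1258 and 1103 FPKM with cytarabine and 1072, 1052 and 1134 FPKM in controls. The enzyme makes NADH from the split sugar, and its RNA is widely used as a reference. This gave a log2 fold change of 0.11 (standard error 0.07, 95% interval -0.06 to 0.28, adjusted p = 0.417 from limma), and it was 0.08 and 0.14 with little and much colon RNA. Pgk1, the kinase that makes the first ATP of the pathway, lies on chromosome X from 106187100 to 106203699. It was at 437, 387 and 421 FPKM with cytarabine and 459, 405 and 386 FPKM in controls. The groups overlapped almost fully, and the log2 fold change was -0.0041 (standard error 0.09, 95% interval -0.22 to 0.21, adjusted p = 0.982 from limma). The difference was 0.14 with little colon RNA and -0.19 with much.

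Of the enzymes at pyruvate, Ldha, on chromosome 7 from 46841475 to 46855627, was at 654, 622 and 655 FPKM with cytarabine and 678, 603 and 605 FPKM in controls. The highest value and both of the lowest were controls. On the log2 scale the difference was 0.04 (standard error 0.07, 95% interval -0.13 to 0.20, adjusted p = 0.775 from limma), with 0.11 and -0.09 at little and much colon RNA. Its first promoter window, shown above, held the most cores. Ldha made up at least 97.7% of the Ldha and Ldhb FPKM in every library. The lowest share was in control 1, where Ldhb, the heart form, was at 15.7 FPKM beside 1.12 to 7.30 FPKM in the other libraries.

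Pdk1, on chromosome 2 from 71873224 to 71903858, was at 24.2, 27.4 and 25.3 FPKM with cytarabine and 25.0, 22.6 and 23.7 FPKM in controls. Control 1 lay inside the cytarabine range. Its difference on the log2 scale was 0.11 (standard error 0.07, 95% interval -0.08 to 0.29, adjusted p = 0.449 from limma), with 0.06 and 0.08 at little and much colon RNA. Pdk1 was not the main kinase of its family. Pdk3 was at 55.5, 42.4 and 43.6 FPKM with cytarabine and 50.1, 50.1 and 53.7 FPKM in controls, so Pdk1 made up 30.2% to 37.0% and 30.6% to 32.0% of the family (exact permutation p = 0.4). The difference of 2.53 points ranged from 0.87 (without cytarabine 2) to 4.24 (without cytarabine 1) when 1 library was left out. Pdk4 was under 1 FPKM in each library.

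Hif1a lies on chromosome 12 from 73901375 to 73947530. It was at 21.6, 26.8 and 32.2 FPKM with cytarabine and 25.2, 23.2 and 21.9 FPKM in controls. Cytarabine 1 was the lowest of all 6 libraries and cytarabine 3 the highest, so the cytarabine mice spread around the controls. This gave a log2 fold change of 0.17 (standard error 0.15, 95% interval -0.19 to 0.54, adjusted p = 0.525 from limma), with -0.06 and 0.21 at little and much colon RNA. Without cytarabine 1 it was 0.32 (unadjusted p = 0.0349, adjusted p = 0.120 from limma), and without cytarabine 3 it was 0.038 (adjusted p = 0.911 from limma). Hif1a was the main alpha subunit, since Epas1 (HIF-2 alpha) was at 3.96 FPKM or less and Hif3a at 0.22 FPKM or less. The share of Hif1a was 98.5%, 86.7% and 89.7% with cytarabine and 94.2%, 97.1% and 99.7% in controls (exact permutation p = 0.3).

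Aldoa and Pfkl, the genes with the most positive and the most negative difference, were compared with every tested gene by the root mean square difference of centred log2(FPKM + 1) over the 6 libraries. Arap1 (0.050), Brms1l (0.053) and Rtn4 (0.057) were nearest to Aldoa. Stx18 (0.016), Rnf43 (0.019) and Tsc1 (0.020) were nearest to Pfkl. No other gene of sugar metabolism was among them.

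The wider pathway was read from 7 lists with 110 genes, of which 95 passed the filter on low FPKM. At an unadjusted p under 0.05, 10 were higher and 9 lower, which is 10.5% and 9.47% beside the background of 7.60% and 9.81%. No list gene had an adjusted p under 0.05 in limma. The median log2 fold change over the 95 genes was 0.02. Without cytarabine 1 the counts were 23 higher and 12 lower, where 17.3% and 17.5% of all tested genes were. With the colon and heart scores as covariates they were 3 and 2, beside 2.55% and 2.28%. That fit estimated the group difference and both scores from 6 libraries, which left few degrees of freedom. The colon score was also highest in cytarabine 2 and 3, so estimates from that fit are imprecise.

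Of 5 other sugar transporters tested, 1 was higher and 0 lower. That gene, Slc2a6 (GLUT6), was at 11.1, 8.44 and 8.03 FPKM with cytarabine and 3.23, 6.67 and 3.18 FPKM in controls. It was higher in every cytarabine mouse (log2 fold change 0.98, unadjusted p = 0.0122, adjusted p = 0.192 from limma). Of 22 other glycolytic enzymes, 2 were higher and 2 lower, with a median of 0.08. Tpi1, which interconverts the split sugars, and Hk1 were higher. Tpi1 was at 279 to 319 FPKM against 254 to 273 FPKM (log2 fold change 0.20, adjusted p = 0.236 from limma). Pfkp, above, and Adpgk, a glucokinase that uses ADP, were lower. Adpgk was at 16.5, 11.5 and 12.1 FPKM with cytarabine and 17.3, 20.1 and 22.0 FPKM in controls (log2 fold change -0.55, adjusted p = 0.199 from limma). With the colon and heart scores as covariates, Slc2a6 was at 1.76, Pfkp at -0.31 and Adpgk at -0.28.

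Of 16 tested genes of lactate and pyruvate handling, 3 were higher (18.75%) and 0 lower, beside 7.60% and 9.81% of all tested genes. Of the 3, 2 act in one transport step. Slc16a3 (MCT4), another lactate carrier, stood on the other side, with overlapping groups (log2 fold change -1.17, adjusted p = 0.357 from limma). Slc16a1 (MCT1), a lactate carrier, was at 60.8, 70.1 and 66.7 FPKM with cytarabine and 57.3, 48.8 and 53.9 FPKM in controls (log2 fold change 0.30, adjusted p = 0.199 from limma). Bsg (basigin), the membrane partner that Slc16a1 needs to reach the surface, was at 191 to 235 FPKM against 177 to 182 FPKM (0.27, adjusted p = 0.231 from limma). The third was Pdp2, a phosphatase that reverses the action of the Pdk kinases, at 7.90 to 8.97 FPKM against 5.20 to 6.59 FPKM (0.42, adjusted p = 0.181 from limma). With the colon and heart scores as covariates, the log2 fold changes of Slc16a1, Bsg and Pdp2 were 0.03, 0.17 and 0.09. In the pentose phosphate pathway, which makes NADPH and ribose, 0 of 7 enzymes were past the unadjusted threshold in either direction.

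Among the 8 tested regulators of HIF, 1 was higher and 2 were lower. Egln1 (PHD2), the oxygen sensor that marks Hif1a protein for destruction, was at 28.6, 27.2 and 28.1 FPKM with cytarabine and 36.0, 35.1 and 34.9 FPKM in controls. The mice within each group lay close together, and the log2 fold change was -0.33 (unadjusted p = 0.00103, adjusted p = 0.136 from limma). Arnt, the DNA-binding partner of Hif1a, was at 11.4 to 11.8 FPKM against 13.02 to 14.5 FPKM (-0.21, adjusted p = 0.228 from limma). Arnt2, its relative of the nervous system, was at 4.12, 2.78 and 4.97 FPKM with cytarabine and 0.39, 1.14 and 0.69 FPKM in controls (1.51, adjusted p = 0.136 from limma).

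Of 30 other targets of HIF, 2 were higher and 4 lower, and their median was -0.15. Adm (adrenomedullin), a secreted peptide, was at 5.79 to 7.39 FPKM against 3.28 to 5.41 FPKM (log2 fold change 0.65, adjusted p = 0.205 from limma). Higd1a, a mitochondrial protein, was at 32.9 to 35.7 FPKM against 27.1 to 31.9 FPKM (0.25, adjusted p = 0.230 from limma). Stc2 (stanniocalcin 2) was at 3.26, 2.92 and 2.68 FPKM with cytarabine and 5.65, 4.61 and 4.74 FPKM in controls (-0.60, adjusted p = 0.151 from limma). Ero1l, the oxidase of the endoplasmic reticulum, was at 79.5 to 87.9 FPKM against 90.8 to 105 FPKM (-0.24, adjusted p = 0.222 from limma). Narf and Car12 were the other 2 lower genes, at -0.22 and -0.31. Targets thus stood on both sides of 0. With the colon and heart scores as covariates, Arnt was at -0.06, Higd1a at 0.11, Arnt2 at 2.49, Adm at 1.37 and Narf at -0.38. In that fit Egln1 was at -0.29, Stc2 at -0.74 and Ero1l at -0.29. Each of these had an adjusted p of 0.999 from limma.

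In the list of sugar-responsive regulators, 1 of 7 was higher and 1 lower. Txnip, which restrains glucose uptake and is induced by glucose, was at 121, 436 and 356 FPKM with cytarabine and 138, 103 and 83.1 FPKM in controls (log2 fold change 1.32, unadjusted p = 0.0401, adjusted p = 0.269 from limma). Cytarabine 1 lay inside the control range, and the 3 highest values were those of the libraries with much colon RNA. Arrdc4, a relative of Txnip named after its values were seen, was highest in the same 3, at 3.53 to 11.1 FPKM beside 0.66 FPKM or less. Myc, a known activator of glycolytic genes, was at 33.4, 27.1 and 20.9 FPKM with cytarabine and 36.5, 35.6 and 48.5 FPKM in controls (-0.56, adjusted p = 0.248 from limma), and at -0.86 with the covariates. Cd28 was higher in every cytarabine mouse than in any control. Summed neutrophil marker RNA was far lower in cytarabine 2 and 3 than in any control. In cytarabine 1 that sum was 1482 FPKM, close to control 1 at 1487 FPKM. Both stood beside these differences of list genes. The part of neutrophil RNA and of Cd28 in them was not tested. For colon RNA, the fit with the colon and heart scores was made. Differences within little and much colon RNA were also taken for the list genes with separate groups. They were -0.28 and -0.37 for Egln1, 1.10 and 1.13 for Slc2a6, and 0.07 and 0.40 for Bsg. Their signs could not differ, because groups that do not overlap fix the sign on both sides.

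**Figure D4:**
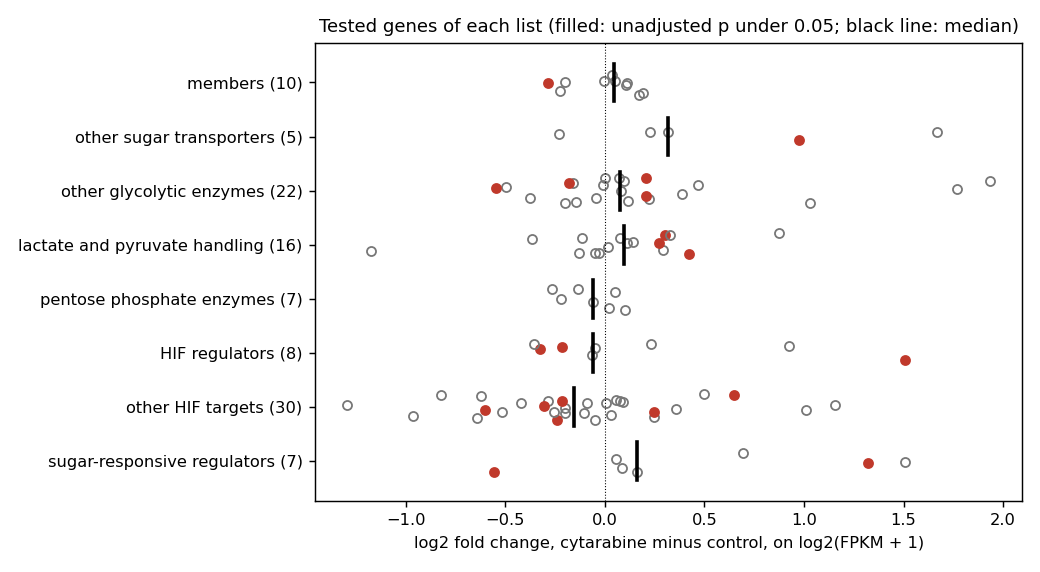
Log2 fold change, cytarabine minus control, of every tested gene of the 10 genes and the 7 lists, on log2(FPKM + 1). Filled points have an unadjusted p under 0.05 and black lines are medians, which range from -0.15 for other HIF targets to 0.32 for other sugar transporters.

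Several of the wider genes varied far more between mice than the 10 genes did, and in step with RNA of another tissue. These genes were chosen after their values were seen. With the heart hormone Nppa, at 1480 FPKM in control 1, 393 in cytarabine 3, 318 in control 2, 30.6 in control 3, 2.08 in cytarabine 1 and 1.27 in cytarabine 2, went Vegfa, the growth factor of blood vessels. Vegfa was at 43.5, 18.8, 19.6, 11.1, 6.76 and 8.74 FPKM in the same order. Slc16a3 (MCT4), the lactate exporter of muscle, was at 9.37, 3.35, 5.50, 1.55, 0.77 and 0.94 FPKM in that order. Egln3 was highest in control 1 too, at 11.3 FPKM, and lowest in cytarabine 1, at 0.43 FPKM, but at 3.48 FPKM in cytarabine 2, where Nppa was lowest. These are typical hypoxia genes whose order over the mice was close to that of a heart transcript. Slc2a1, alone among the 10 genes, was also highest in the first 3 of these libraries. In the order of Nppa it was at 54.0, 42.2, 45.3, 38.2, 39.9 and 35.9 FPKM.

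With the colon gene Zg16, which was in order 2207, 1948, 1049, 137, 9.58 and 9.49 FPKM in cytarabine 3, cytarabine 2, control 1, cytarabine 1, control 2 and control 3, went Eno3, the muscle enolase. Eno3 was at 94.9, 96.1 and 39.5 FPKM in the first 3 libraries and at 9.10, 6.91 and 6.40 FPKM in the last 3. Ndrg1 and Epas1 were also highest in the first 3 libraries, at 8.47 to 16.8 FPKM and 1.45 to 3.96 FPKM. Ldha, by contrast, stayed between 603 and 678 FPKM over all 6, but it had the lowest SD of the 10 genes on the log2 scale. Aldoa, Hif1a and Pdk1 were also highest in the first 3 libraries, with smaller differences. Aldoa was at 495 to 508 FPKM there and at 367 to 447 FPKM in the last 3. Hif1a was at 25.2 to 32.2 FPKM and at 21.6 to 23.2 FPKM. The other members did not have this order. The part of these tissues in the levels was not tested.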

How the data were processed

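RNA of sorted C1498 cells from 3 cytarabine-treated and 3 control mice was sequenced as stranded mRNA libraries (75-base single-end reads). The authors deposited FPKM values per gene made with Cufflinks 2.2.1 after mapping to mm10, and the submitters' processing notes also name TopHat2 2.0.13, Bowtie2 2.2.3 and SAMtools 0.1.19. Which annotation and Cufflinks options were used is not given in the sources used here. Groups and replicate numbers come from the sample records. The 10 genes and all lists were chosen with earlier results of these data known.

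Genes averaging 1 FPKM or more (11703 of 23284) were tested on log2(FPKM + 1) with limma 3.58.1 in R 4.3.3, by lmFit and a two-sided moderated test (eBayes, trend). Benjamini-Hochberg adjustment ran over all tested genes. A fold change on this scale understates the change of low genes. No count test was run because counts were not given. Family shares were compared with exact permutation tests in SciPy 1.17.1. Same-numbered libraries come from different mice and were not treated as pairs. Named list genes are up to 3 per direction with the smallest unadjusted p, provided that it is under 0.05 and the groups are separate. Car12, Txnip and the genes set beside Nppa and Zg16 were named after their values were seen. Read totals were inferred from FPKM steps of 3607 genes with 1 transcript, assuming fragments of 200 bases, and counting error alone was at most 4.92% at 20 FPKM on 2000 bases. Positions and shared 75-base stretches come from a GENCODE annotation of GRCm38, and promoters from RefSeq. The script that runs limma was tested on simulated data. Labels name each mouse as a separate sample. Marker genes Muc2, Ly6g, Trac and Spi1 were not analysed here. Some single genes of the lists are not reported here.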

Additional observations from a re-analysis of the deposited data

How the results depend on the processing

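Another pseudocount, other filters, other scalings, other settings of eBayes, a replicate block, colon and heart scores as covariates, and leaving out each library were compared with the fit reported. None gave a member an adjusted p under 0.05, and 6 of the 10 (Slc2a1, Hk2, Pfkl, Aldoa, Ldha and Hif1a) kept their sign in all 16 of these. Sign changes were those of Gapdh (-0.10), Pdk1 (-0.11) and Pgk1 (0.076) with the covariates and of Pgk1 with an equal sum per library (0.016). Leaving out 1 library at a time, Pgk1 ranged from -0.057 (without control 3) to 0.067 (without control 1), Slc2a3 from -0.014 (without cytarabine 1) to 0.096, Gapdh from 0.058 to 0.15, Ldha from 0.0073 to 0.091, Pdk1 from 0.058 to 0.14, and the share of Ldha from -0.18 points (without control 1) to 0.85 points. In the same fits 5.08% to 17.3% of all tested genes were higher and 5.00% to 17.5% lower at an unadjusted p under 0.05. Beside this, 0 to 1 members were higher and 1 to 2 lower. From 1 to 4 did not overlap, with 4 without cytarabine 1 and 4 without control 1, where 55.8% and 41.9% of all tested genes did not, and 4 to 23 pathway genes were higher and 4 to 12 lower; both maxima of the last counts came without cytarabine 1, where 2026 of all tested genes were higher and 2049 lower.

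With the covariates, 0 members were lower, 3 pathway genes were higher and 2 lower, and 298 and 267 of all tested genes. With quantile normalization, 6 pathway genes were higher and 14 lower, beside 6.15% and 10.4% of all tested genes. With an equal sum per library, 2 members did not overlap, beside 24.0% of all tested genes. The replicate block, whose numbers name different mice (same-numbered deviations correlated at -0.709, -0.247 and -0.594), gave 2 members lower, 4 pathway genes higher and 2 lower, and 479 and 515 of all tested genes. At an adjusted p under 0.05, 0 to 5 genes were called over these settings.

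Within the libraries with little colon RNA, a division added after seeing the data, values that moved by more than the spread between mice were Hif1a (-0.060), Hk2 (0.055), Ldha (0.11), Pfkl (-0.18), Pgk1 (0.14) and Slc2a3 (0.16). Within those with much they were Aldoa (-0.0079), Hk2 (-0.50), Ldha (-0.086), Pgk1 (-0.19) and Slc2a1 (-0.46). Signs matched on both sides for 5 of the 10 genes. The cause of these shifts was not tested. Each group held 3 mice, and counting error at 20 FPKM on 2000 bases was at most 4.92% by the estimated read totals.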

Other observations

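Eno1, the enolase of most cells, stood apart in a single library and was singled out after its values were seen. It was at 204 FPKM in cytarabine 2 and at 113, 89.5, 80.3, 87.7 and 110 FPKM in cytarabine 1, cytarabine 3, control 1, control 2 and control 3. Its log2 fold change was 0.47 (adjusted p = 0.430 from limma).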
